A study of Mus musculus with 4 samples.

Results

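Cytosolic ribosomal protein genes were taken as the genes whose mm9 symbol is Rpl or Rps followed by a digit, or is Rplp0, Rplp1, Rplp2 or Rpsa, leaving out the Rps6k kinases and symbols with -ps. By this rule 85 of the 20179 genes with deposited exon blocks were members, of which 51 carry large subunit names and 34 small subunit names. Of these, 76 are on a list of 79 canonical ribosomal proteins. The other 9 are the paralogues Rpl3l, Rpl7l1, Rpl10l, Rpl22l1, Rpl36al, Rpl39l, Rps4y2 and Rps27l, and Rps19bp1, which encodes a binding partner of the protein Rps19 and meets the rule by its name alone.

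Ribosomal proteins are made in the cytosol, carried to the nucleolus and assembled there with ribosomal RNA into the large subunit, which forms peptide bonds, and the small subunit, which reads the mRNA. Their mRNAs are short and abundant, and many begin at a run of pyrimidines, the terminal oligopyrimidine (TOP) motif, through which growth and nutrient signals control their translation. The intestinal epithelium renews itself from dividing crypt cells and contains secretory cells, both of which need many ribosomes.

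RNA of total small intestine and of total colon from untreated C57BL/6 mice aged 9 to 10 weeks was sequenced on the SOLiD platform, with 1 library for each tissue and protocol and 4 libraries in all. By the study's methods the small intestine was jejunum and the colon was distal colon. In the cDNA fragmented protocol, polyadenylated RNA was copied into full-length cDNA by oligo-dT priming and template switching, amplified and then fragmented, which does not keep the strand. In the RNA fragmented protocol, RNA was fragmented first and adaptors were ligated with the strand kept. The labels of the RNA fragmented libraries give ribosomal RNA depletion and the paper describes polyadenylated RNA for that protocol, so selection of RNA, order of fragmentation and kit differ together and cannot be told apart. In its summary of mapping the paper lists many more reads for the RNA fragmented protocol than the deposited reports do, so these 2 libraries are at most a portion of that data set and the paper's account of the protocol may not hold for them. The paper describes both tissues as taken from the same mice. The labels tie no library to a mouse and do not mention pools.

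The cDNA fragmented libraries held 22298388 exon reads in small intestine and 24595266 in colon, and the RNA fragmented libraries held 2020002 and 3449740, so their values are less precise. Uniquely placed were 29.0% and 29.8% of all cDNA fragmented reads, and 5.59% of 36419942 and 9.28% of 37466674 RNA fragmented reads. The tissue labels were checked against markers. The summed level of 7 small intestinal epithelium markers, in RPKM (reads per 1000 exon bases per 1000000 exon reads), was 47138 in small intestine and 4640 in colon by cDNA fragmentation, and 12403 and 728 by RNA fragmentation. Fabp2 made up 38168 of the 47138, and 6 of the 7 were called higher in small intestine, but Mep1a was at 113 and 149 RPKM by cDNA fragmentation, with a log2 fold change of 0.45 (positive is higher in colon; limma, adjusted p = 0.466). Of 7 colonic epithelium markers 6 were found, with summed RPKM of 477 and 56514 by cDNA fragmentation and 171 and 7226 by RNA fragmentation. Car1 made up 52773 of the 56514, and 5 of the 6 were called higher in colon, but Ceacam20 was at 80.4 and 51.2 and at 52.5 and 48.4 RPKM. Other cell type lists were summed as well. Smooth muscle markers (6 of 7 found) summed to 225 and 838 RPKM and to 199 and 1809 RPKM, goblet cell markers (6 of 7) to 16499 and 38654 and to 4579 and 10623, Paneth cell markers (4 of 4) to 18656 and 515 and to 2680 and 355, and lymphocyte markers (7 of 7) to 126 and 41.8 and to 33.9 and 32.3, each in small intestine and colon by cDNA and then by RNA fragmentation. In the same order, 8 markers of dividing cells summed to 234 and 204 and to 176 and 151. Among these lists, 5 smooth muscle markers and the goblet cell markers Clca3 and Agr2 were called higher in colon (limma). Called higher in small intestine were 3 Paneth cell markers, 3 lymphocyte markers and 1 marker of dividing cells (limma). The other 4 goblet cell markers did not pass, and among them Fcgbp was at 702 and 433 RPKM by RNA fragmentation. Pancreatic acinar markers (8 of 8) summed to 2629 RPKM in the RNA fragmented small intestine library against 19.2, 817 and 299 in the cDNA fragmented small intestine, cDNA fragmented colon and RNA fragmented colon libraries. Of these markers Cela1 alone was called higher in colon (log2 fold change 1.91, limma adjusted p = 0.035), and 0 were called higher in small intestine. Without Cela1, left out after the data were seen, the others summed to 2129 RPKM against 0.834, 268 and 6.11. The RNA fragmented small intestine and cDNA fragmented colon libraries thus both stood apart. Markers listed at 0 were Car1, Cpa1, Pnlip and Prss2 in the cDNA fragmented small intestine library, Cd3g in the RNA fragmented colon library and Amy2a5 in all 4 libraries. Lars2, a mitochondrial leucyl-tRNA synthetase gene, alone took 13.8% of reads in the RNA fragmented small intestine library and 5.40% in the RNA fragmented colon library. Whether the reads placed on Lars2 come from its mRNA was not tested. The part of these differences in the results was not tested, and in such bulk tissue fewer cells of a type and less RNA per cell cannot be told apart.

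Start windows were examined because the TOP motif lies at the start of transcription. RefSeq windows of GRCm38.p6 were found for 64 of the 85 members. The windows printed here are those of the most abundant members, of commonly used reference genes and of members that differed between tissues; sequences read 5′ to 3′ and capitals mark the longest unbroken run of C and T within 50 bases on either side of the annotated start.
Rpl35 (chr2:39005115-39005144, minus strand): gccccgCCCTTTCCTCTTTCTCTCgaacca
Rps27 (chr3:90213632-90213661, minus strand): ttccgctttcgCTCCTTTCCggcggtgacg
Rps18 (chr17:33955648-33955677, minus strand): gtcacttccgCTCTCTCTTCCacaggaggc
Rpl13a (chr7:45128722-45128751, minus strand): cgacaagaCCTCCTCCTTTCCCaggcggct
Rpl9 (chr5:65391383-65391412, minus strand): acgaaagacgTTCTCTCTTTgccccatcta
Rpl39 (chrX:37085173-37085202, minus strand): gttcttccggtcccggCCTTTCTCTTCTCC
Rplp0 (chr5:115559466-115559495, plus strand): aggaccgcctggTTCTCCTataaaaggcac
The runs were 18 bases in Rpl35, 9 in Rps27, 11 in Rps18, 14 in Rpl13a, 10 in Rpl9, at least 14 in Rpl39 and 7 in Rplp0. In Rpl39 the run reaches the limit of 50 bases past the start, so it can be longer. They began 7 bases before the annotated start in Rpl35 and 2 before it in Rps27 and Rps18, but 2 bases past it in Rpl13a, 11 in Rplp0, 29 in Rpl9 and 36 in Rpl39, so not all of them lie at the start. A run of 8 or more pyrimidines was present in 58 of 76 member windows (76.3%, some genes having more than 1 window) and in 35.7% of 32851 windows of all genes. On the opposite strand such a run was present in 23.7% of member windows and in 38.1% of all windows, so the larger share among the members was limited to the strand of the mRNA. These are matches of letters within the window and not measured start sites.

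Since only uniquely placed reads were deposited, near copies limit what can be measured of a member. In 72 members at least 81% of the 35-base windows of the coding sequence differed from every other exon by more than 1 base, whereas 13 members had under 60% of such windows. The pairs that follow show stretches of 3 of these genes in mm9, aligned to the copy that matches them, with the differing base in capitals.
Rplp2 (chr7:148633877-148633906, plus strand): aagaaaatactagAcagcgtgggcatcgaa
Wdr89 (chr12:76732207-76732236, minus strand): aagaaaatactagGcagcgtgggcatcgaa
Rpl26 (chr11:68716759-68716788, plus strand): gaacgAgtccagcgagagaaggctaatggc
Gm10136 (chr19:29078057-29078086, minus strand): gaacgCgtccagcgagagaaggctaatggc
Rps4x (chrX:99381808-99381837, minus strand): gCtcgtactattcggtaccctgatcccctc
Gm9294 (chr7:50209300-50209329, minus strand): gGtcgtactattcggtaccctgatcccctc
All 209 coding windows of Rplp2 and all 333 of Rpl26 were matched by the copy with at most 1 difference, and 392 of 582 in Rps4x. Levels of such members are uncertain and can be understated, since reads that fit both genes were removed. Windows were compared with exon blocks only. Whether reads of copies outside these blocks add to the level of any member was not tested. Another 7 members (Rpl35, Rps27a, Rpl5, Rpl23a, Rpl32, Rps25 and Rpl31) share exon bases with a neighbouring gene. Rps15a holds 5134 exon bases, 4818 of them in its last exon block, and 6.69% of its coding windows were unique.

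Members took 2.88% of exon reads in small intestine and 5.36% in colon by cDNA fragmentation, and 0.895% and 1.88% by RNA fragmentation. The colon share was thus 1.86 times the small intestinal share by cDNA fragmentation and 2.10 times by RNA fragmentation. The 95% Wilson intervals of these shares were 2.87 to 2.89%, 5.36 to 5.37%, 0.882 to 0.908% and 1.87 to 1.90%, and cover counting error only, as do all intervals given here. Large subunit genes (1.89 and 2.09 times higher in colon by cDNA and RNA fragmentation) and small subunit genes (1.83 and 2.13 times) differed between tissues by like factors. The 9 members outside the canonical list together differed less, by 1.27 and 1.23 times. With Lars2 left out of the totals, the ratio of colon to small intestine was 1.92 by RNA fragmentation.

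The members were among the most abundant genes in every library. Their median RPKM was 385 in small intestine and 665 in colon by cDNA fragmentation, against medians over all genes of 0.990 and 1.41. By RNA fragmentation the medians of members were 108 and 183, and those of all genes 1.94 and 2.66. Among the 100 genes with the highest RPKM, 8 were members in small intestine and 25 in colon by cDNA fragmentation, and 2 and 15 by RNA fragmentation. All 85 members had at least 1 read in the cDNA fragmented small intestine library, 84 in the cDNA fragmented colon and RNA fragmented small intestine libraries, and 83 in the RNA fragmented colon library. Small subunit genes had median RPKM of 433, 798, 115 and 194, and large subunit genes of 337, 649, 108 and 167, in small intestine and colon by cDNA and then by RNA fragmentation. The order of the levels was similar in both tissues within a protocol (Spearman's rho across 83 genes 0.963 by cDNA and 0.938 by RNA fragmentation) and less so between protocols (0.652 in small intestine and 0.599 in colon). These correlations are across genes of shared libraries and are given as a description.

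**Figure D1:**
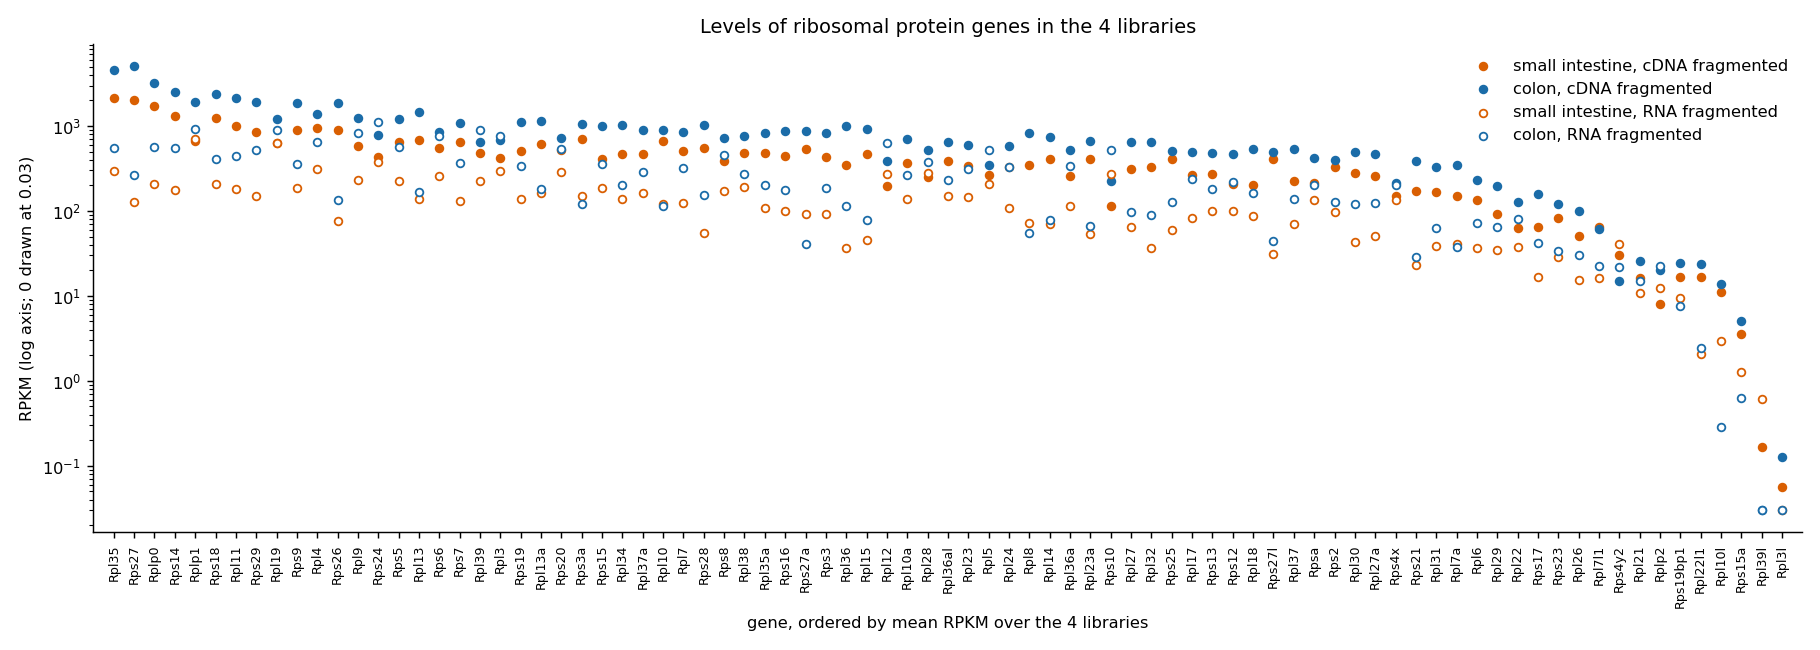
RPKM (log axis, 0 drawn at 0.03) of 83 of the 85 ribosomal protein genes, ordered by their mean over the 4 libraries. Filled points are cDNA fragmented and open points RNA fragmented libraries, with small intestine in orange and colon in blue; most blue points stand above the orange points of the same fill, and most open points stand below the filled points.

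The highest mean levels were those of Rpl35, Rps27, Rplp0, Rps14 and Rplp1. Rpl35, a protein near the exit of the peptide tunnel, was at 2123 RPKM (small intestine) and 4542 RPKM (colon) by cDNA fragmentation, and at 298 and 544 by RNA fragmentation. Rps27, a zinc-binding protein of the small subunit, had 2000 and 5068 RPKM by cDNA but 129 and 264 by RNA fragmentation. For each of these genes the colon value was above the small intestinal value within each protocol. Its RNA fragmented colon value did not reach its cDNA fragmented small intestinal value.

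Rplp0, the base of the stalk that recruits translation factors and a common reference gene, had 1709 and 3252 RPKM by cDNA and 209 and 566 by RNA fragmentation in small intestine and colon. Rplp1, an acidic protein of the same stalk, had 674 and 1927 RPKM by cDNA but 706 and 923 by RNA fragmentation. On this scale of library totals its ratio of RNA to cDNA fragmentation in small intestine was 1.05 (95% counting interval 0.966 to 1.13), while in the limma fit with TMM scaling it fell by RNA fragmentation over both tissues (log2 fold change -1.24 ± 0.37, limma adjusted p = 0.0074), a call lost with totals alone (limma, adjusted p = 0.30). Rplp2, the partner of Rplp1, was at 7.93, 20.1, 12.3 and 22.3 RPKM, with no coding window free of a near copy in Wdr89. Rps14, on the platform of the small subunit, was at 1322, 2494, 179 and 549 RPKM in small intestine and colon by cDNA and then by RNA fragmentation. The reference genes Rps18 (1254, 2353, 210 and 406 RPKM in the same order) and Rpl13a (611, 1147, 164 and 183 RPKM) differed 1.88-fold each between tissues by cDNA fragmentation. By RNA fragmentation Rps18 was 1.94 times higher in colon (95% interval 1.66 to 2.26), and Rpl13a 1.12 times (0.962 to 1.30), an interval that includes equal levels.

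The lowest mean levels were those of Rpl3l, Rpl39l, Rps15a, Rpl10l and Rpl22l1. The level of Rps15a, a canonical member, is uncertain and can be understated. Most of its exon bases lie in its long last exon block, and few of its coding windows were unique. Rpl3l, the striated muscle counterpart of Rpl3, had 2 reads in small intestine and 5 in colon by cDNA fragmentation and 0 by RNA fragmentation. Rpl39l had 3 reads in the cDNA fragmented and 1 in the RNA fragmented small intestine library and 0 in both colon libraries. These 2 genes stayed under the minimum of 20 reads over the 4 libraries, so 83 members were tested. A count of 0 in the RNA fragmented colon library allows up to 3 reads, or 0.0719% of the level of Rpl3 for Rpl3l and 0.122% of the level of Rpl39 for Rpl39l.

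The paralogues were compared with their canonical counterparts per length. Rpl36al, which lies on another chromosome than Rpl36a and encodes a nearly identical protein, was at 150%, 124%, 130% and 68.2% of the RPKM of Rpl36a in small intestine and colon by cDNA and then by RNA fragmentation. It was the only paralogue of the 8 above its counterpart in any library. Rps27l was at 20.3%, 9.73%, 24% and 16.8% of Rps27, Rps4y2 at 20.7%, 6.94%, 29.7% and 10.8% of Rps4x, and Rpl7l1 at 12.7%, 7.23%, 12.9% and 6.96% of Rpl7 in the same order. Rpl36al and these 3 paralogues stood lower against their counterparts in colon than in small intestine in both protocols, without a test. By cDNA fragmentation Rpl22l1 and Rpl10l did so as well. Rpl22l1 was at 26.8% and 18.9% of Rpl22 by cDNA fragmentation and had 2 and 4 reads by RNA fragmentation. Rpl10l, an intronless copy known for its role in the testis, was at 1.65% and 1.52% of Rpl10 by cDNA and 2.41% in small intestine by RNA fragmentation, with 1 read in the RNA fragmented colon library. Its fitted log2 fold change of RNA to cDNA fragmentation was -1.71 at 1 mismatch and -4.01 with junctions added. Much of its cDNA fragmented level thus rests on reads with more than 1 mismatch and is uncertain. Only 32.5% of the coding windows of Rps4x were unique, so the ratio of Rps4y2 to it is uncertain.

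Between tissues, 82 of 85 members were higher in colon by cDNA fragmentation and 74 by RNA fragmentation, and 73 were higher in both, beside 7579 of all 20179 genes. On the scale of RPKM + 1 the median log2 ratio of the members between tissues (positive is higher in colon) was 0.91 and 0.88 by cDNA and RNA fragmentation, and the medians of all genes were 0.04 and 0.00. All genes include those without a read, whose ratio is 0 on this scale. Above 0 were 10902 of all genes and below it 5683 by cDNA fragmentation, and 9909 and 5686 by RNA fragmentation. Other genes of over 500 to 1000 exon bases, the length of most members, had medians of 0.62 and 0.50, against 0.91 and 0.88 for the 49 members of that length that passed the minimum of reads. The 95% counting interval of the ratio was above 1 for 81 members by cDNA fragmentation, for 64 by RNA fragmentation and for 63 by both. It was below 1 for 2 members by cDNA fragmentation (Rpl7l1 and Rps4y2) and for 5 by RNA fragmentation (Rps3a, Rps27a, Rpl8, Rps4y2 and Rpl10l), names that were chosen after their values were seen. Counting intervals narrow with more reads. No share over all genes is given for them, so these counts do not set the members apart from other genes. With median-of-ratios scaling the medians of members were 0.59 and 0.54, and 78 and 67 members were above 0. The medians of all genes were then 0.00 in both protocols, and their count above 0 is not given. Across the 83 tested members the log2 ratios of both protocols were weakly related (Pearson's r 0.38, Spearman's rho 0.22, a description across genes).

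**Figure D2:**
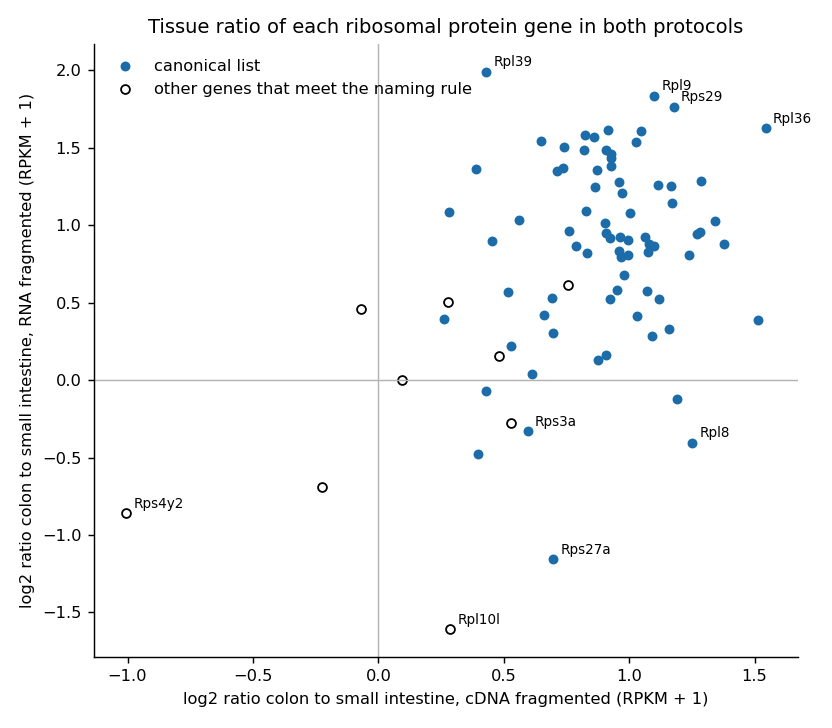
Log2 ratio between colon and small intestine (RPKM + 1, positive is higher in colon) of each of the 85 ribosomal protein genes by cDNA fragmentation (x axis) and by RNA fragmentation (y axis), with canonical genes as filled and the other 9 as open points. Most canonical genes lie right of and above the lines at 0, with Rps27a, Rpl8 and Rps3a below the horizontal line and Rps4y2 on the small intestinal side of both.

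The tissue difference was tested by limma voom with protocol as a block, which measures it against how far it differs between the protocols. Among 83 members tested, 4 (4.82%) rose in colon and 1 (1.20%) fell at an adjusted p below 0.05, against 7.28% of all 14186 genes tested that were higher in colon and 6.99% that were higher in small intestine. At this threshold the share of members called was not above the background. A positive log2 fold change was nonetheless found for 76 of the 83 members, beside 7904 of all 14186 genes. The median was 0.69 over the members against 0.12 over all genes. At an unadjusted p below 0.05, 28 members (33.7%) were higher in colon and 1 (1.20%) in small intestine, against 14.4% and 11.9% of all genes. The standard error of the log2 fold change had a median of 0.38 over the members. The design has 1 residual degree of freedom a gene, and the spread was shared over genes.

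Rpl36, Rpl9 and Rps29 were among the members that rose in colon. Their places are given in mm9, from the first to the last exon base. Rpl9, near the factor-binding site of the large subunit (chr5:65779603-65782682), was at 585 and 1255 RPKM by cDNA and 233 and 833 RPKM by RNA fragmentation in small intestine and colon. Both colon libraries lay above both small intestine libraries, and the log2 fold change was 1.18 ± 0.36 (SE; limma, adjusted p = 0.024). Rps29, among the shortest ribosomal proteins (chr12:70258709-70260173), had 848, 1919, 151 and 516 RPKM in the same order and a log2 fold change of 1.16 ± 0.38 (limma, adjusted p = 0.035). Rpl36, also of the large subunit (chr17:56752818-56753666), had 347, 1014, 36.5 and 115 RPKM and a log2 fold change of 1.33 ± 0.41 (limma, adjusted p = 0.027). For Rps29 and Rpl36 the RNA fragmented colon value lay below the cDNA fragmented small intestinal value, so the tissues separated only within a protocol. All 4 calls were lost with median-of-ratios scaling or start points in place of reads, and 25 members (30.1%) were called higher in colon when libraries were scaled by their totals alone, against 12.6% of all genes, whose median log2 fold change was then 0.38.

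Rps4y2 (chr6:148303178-148304120), an intronless relative of the X-linked gene Rps4x, was the only member that fell in colon. It was at 30.7 RPKM in small intestine and 14.8 in colon by cDNA fragmentation, and at 40.5 and 21.9 by RNA fragmentation, so both small intestine libraries stood above both colon libraries. Its log2 fold change was -1.25 ± 0.43 (limma, adjusted p = 0.048), and the call was lost under 6 of the alternative settings, where the log2 fold change was -1.32 to -0.99 (limma, adjusted p 0.065 to 0.115).

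By the rule of a 3-fold difference with 1 RPKM added to the divisor, no member was called by cDNA fragmentation in either direction, against 3.11% of 16585 genes with a read that were higher in colon and 2.65% that were higher in small intestine. By RNA fragmentation 6 of 84 members (7.14%) were called higher in colon and 0 higher in small intestine, against 6.21% and 3.63% of 15595 genes. They included Rps14, Rps29, Rpl9, Rpl36 and Rpl39. Rpl39, a very short protein that lines the peptide tunnel, differed most between protocols among these genes, with 477 and 643 RPKM in small intestine and colon by cDNA fragmentation (ratio 1.35, 95% interval 1.30 to 1.40) and 222 and 887 RPKM by RNA fragmentation (ratio 3.99, 3.40 to 4.69). Its fitted log2 fold change was 0.87 ± 0.39 (limma, adjusted p = 0.145). With TMM factors in the scaling, 1 member stayed past 3-fold, and with Lars2 left out 3 did.

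**Figure D3:**
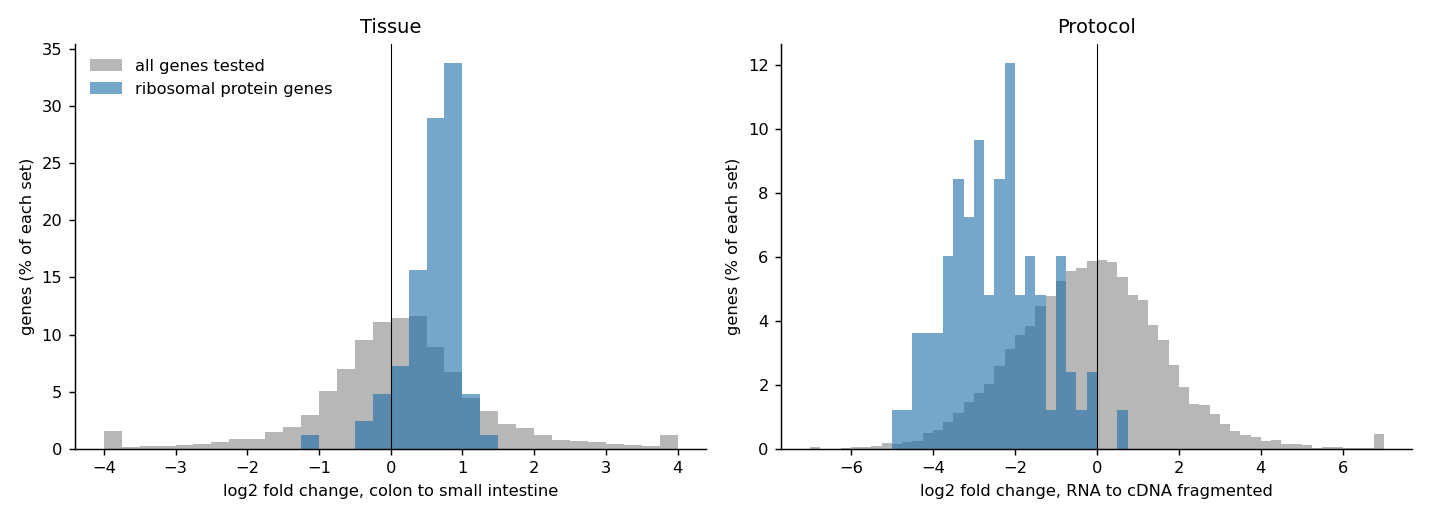
Share of genes (%) by fitted log2 fold change in bins of 0.25, for tissue (left, positive is higher in colon) and protocol (right, positive is higher by RNA fragmentation); blue bars are the 83 tested ribosomal protein genes and grey bars all 14186 genes tested, with values beyond the axis in the end bins. The blue bars lie mostly between 0 and 1 for tissue (median 0.69) and mostly below -1 for protocol (median -2.49).

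The number of start points, the distinct positions and strands at which reads begin, was compared as well. The median density on members was 97.3 start points per 100 exon bases in small intestine and 103 in colon by cDNA fragmentation. By RNA fragmentation it was 7.85 and 15.1. With a start at every base 200 would be possible over both strands, but a read has to fit within its exon block, so fewer are available. The highest density of a member by cDNA fragmentation was 142 in small intestine and 145 in colon. Each start point held a median of 7.96 and 14.9 reads by cDNA and 2.67 and 4.19 by RNA fragmentation, against 1.09 to 1.43 over all genes in the 4 libraries. Pooled over genes, reads per start point were 10.4, 20.5, 3.46 and 6.39 on members and 3.07, 3.24, 2.61 and 2.61 over all genes. These values are for small intestine and colon by cDNA and then by RNA fragmentation. Counted by start points, the median log2 ratio of the members between tissues was -0.02 by cDNA fragmentation, with 38 members above 0 and 47 below, and 0.17 by RNA fragmentation, with 60 above and 24 below. Rps27 had 129 start points per 100 bases in both cDNA fragmented libraries while its RPKM differed 2.53-fold between them. Since start points are limited in number and held many reads each in these libraries, their numbers by cDNA fragmentation cannot show whether the members differed between tissues.

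**Figure D4:**
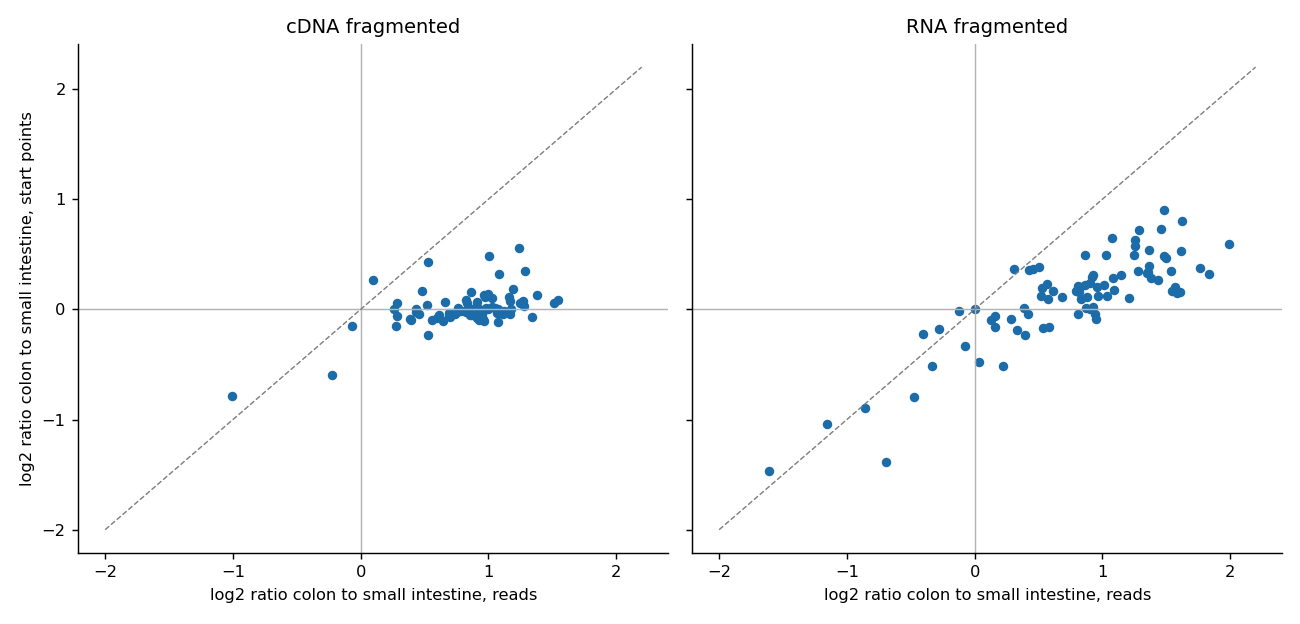
Log2 ratio between colon and small intestine (positive is higher in colon) of each ribosomal protein gene counted by reads (x axis) and by start points (y axis), on RPKM + 1 and the same scale of start points, for cDNA fragmented (left) and RNA fragmented libraries (right); the dashed line marks equal ratios. By cDNA fragmentation the points lie flat near 0 on the y axis (median -0.02), and by RNA fragmentation they rise with the ratio by reads but stay mostly below the dashed line (median 0.17).

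Between protocols, members were mostly lower by RNA fragmentation. On the log2 scale of RPKM + 1 the median ratio of RNA to cDNA fragmentation was -1.65 in small intestine and -1.72 in colon, beside 0.00 over all genes in both tissues. All genes again include those without a read. Above 0 were 9012 of all genes and below it 7020 in small intestine, and 9932 and 6539 in colon. In the limma fit with tissue as a block, 76 of 83 members (91.6%) fell by RNA fragmentation and 0 rose, against 25.3% of all 14186 genes that were higher by cDNA and 19.1% that were higher by RNA fragmentation. At an unadjusted p below 0.05 the counts of members were 77 (92.8%) and 0, against 29.0% and 22.4% of all genes. With limma-trend in place of voom, a choice made after the data were seen, 73 (88.0%) fell and 0 rose, against 24.9% and 17.6% of all genes. The median log2 fold change was -2.49 over the members and -0.18 over all genes. Counted by start points, 13 members (15.7%) fell by RNA fragmentation, against 22.5% of 14041 genes. Start points on members were dense by cDNA fragmentation (medians of 97.3 and 103 per 100 exon bases) and sparse by RNA fragmentation (7.85 and 15.1). Their limited number can hide a fall, so this count cannot show how many members fell.

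Rps27, Rps26, Rps27l and Rps27a were among the members with the largest falls. The level of Rps27 was 15.5 (small intestine) and 19.2 times (colon) higher by cDNA than by RNA fragmentation, and its log2 fold change was -4.85 ± 0.40 (limma, adjusted p = 7.74e-11). Rps26, near the mRNA exit, had 894 and 1883 RPKM by cDNA and 75.3 and 134 by RNA fragmentation (log2 fold change -4.43, limma adjusted p = 7.68e-10). Rps27l, a p53-inducible paralogue, had 406 and 493 RPKM against 31.0 and 44.5 (-4.29, limma adjusted p = 1.37e-08). Rps27a, which is made as a fusion with ubiquitin, had 537 and 871 RPKM against 91.2 and 40.4 (-4.26, limma adjusted p = 4.71e-09). For these 4 genes both RNA fragmented values lay below both cDNA fragmented values.

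The 7 members that did not pass the threshold for protocol were Rps24, Rpl12, Rpl5, Rps10, Rps4x, Rps4y2 and Rplp2, which were chosen after their values were seen. Rps10, at the small subunit head near the entry of the mRNA, was the single member with a positive log2 fold change, 0.51 ± 0.37 (limma, adjusted p = 0.266), at 115 and 226 RPKM by cDNA and 276 and 524 RPKM by RNA fragmentation. It was called higher by RNA fragmentation when libraries were scaled by their totals alone. Rpl12, in the stalk base, was at 196 and 385 RPKM by cDNA and 275 and 637 by RNA fragmentation, and Rpl5, which binds the 5S ribosomal RNA, at 267 and 350 and at 205 and 529. These RPKM are scaled by library totals, and the fitted log2 fold changes of Rpl12 and Rpl5, with TMM scaling, were -0.11 ± 0.36 and -0.61 ± 0.36 (limma, adjusted p = 0.831 and 0.173), so the direction of Rpl12 depends on the scaling. With library totals alone they were 0.61 and 0.10 (limma, adjusted p = 0.192 and 0.850).

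Genes were split by exon length into the length classes used in the study, with no lower limit to the shortest. Among genes that passed the minimum of reads, the median log2 fold change of RNA to cDNA fragmentation was -3.28 for 16 members of up to 500 exon bases and -1.51 for 174 other genes of that length. It was -2.45 for 49 members and -2.31 for 826 other genes of over 500 to 1000 bases, and -2.07 for 17 members and -0.30 for 10431 other genes of over 1000 to 5000 bases. Other genes of over 5000 bases had a median of 0.77. Other genes of up to 500 bases were widely spread, with quartiles of this fold change of -3.54 and 7.22 and a median log2 ratio of RNA to cDNA fragmentation in colon of 0.07. Most members fall in the class of over 500 to 1000 bases. Genes of a class were not matched for level. Within the members, exon length was weakly related to the log2 ratio of RNA to cDNA fragmentation (Spearman's rho across 83 genes 0.21 in small intestine and 0.17 in colon, a description).

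**Figure D5:**
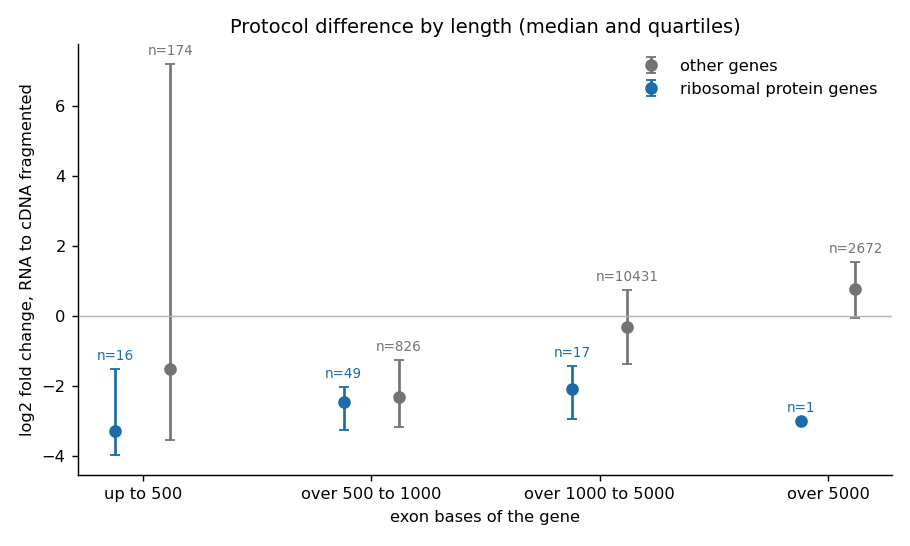
Median log2 fold change of RNA to cDNA fragmentation (points) with the lower and upper quartile (bars) in 4 classes of exon length, for ribosomal protein genes (blue) and other genes (grey) that passed the minimum of reads, with n given at each bar. Medians of other genes rise from -2.31 at over 500 to 1000 bases to 0.77 at over 5000 bases, and those of ribosomal protein genes stay between -3.28 and -2.07 in the classes with more than 1 of them.

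The strand of the reads differed by protocol. By RNA fragmentation 99.6% of member reads in small intestine and 99.9% in colon lay on the strand of the gene, against 97.2% and 97.1% over other genes. By cDNA fragmentation 44.1% and 40.7% did, against 48.5% and 48.7% over other genes, so these libraries carry no strand and reads of antisense genes cannot be told apart in them. Rps23, which acts in decoding, had 3.79% of its reads on its own strand in the cDNA fragmented colon library and 19.9% in small intestine, the lowest shares of all members with at least 100 reads, whereas its RNA fragmented reads were all on its own strand. Only 9.29% of its coding windows were unique.

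Along the members, from 5′ to 3′, the mean share of reads was lowest at the ends. The first 10% of the exon bases held a mean of 2.90% and 3.03% of the reads of a member in small intestine and colon by cDNA and 2.13% and 2.46% by RNA fragmentation, among members with at least 100 reads in the library (82, 83, 56 and 71 members). The last 10% held 5.53%, 4.76%, 6.67% and 5.40%. The stretch from 50% to 60% of the length held 14.9%, 15.1%, 14.4% and 14.3%, the highest mean of each library, with SDs over members of at least 12.4 percentage points. Its medians were 13.1%, 13.0%, 7.35% and 9.17%, and those of the cDNA fragmented colon and RNA fragmented small intestine libraries were higher elsewhere, at 13.4% from 40% to 50% and at 9.45% from 30% to 40% of the length. The first 10% had the lowest median in all 4 libraries, at most 0.308%. Reads were placed by the base at which they begin, and those on junctions were left out. Since a read has to fit within its exon block, fewer can begin near a block end or in a very short block. The low shares at the ends can thus come in part from the counting, which was not tested.

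Other genes of the translation machinery were set beside the members. Fau encodes a ribosomal protein fused to a ubiquitin-like protein but does not meet the naming rule. Fau was at 1443 and 2848 RPKM by cDNA and at 106 and 111 RPKM by RNA fragmentation, in small intestine and colon. It fell by RNA fragmentation, with a log2 fold change of -5.00 ± 0.41 (limma, adjusted p = 7.02e-11). Among 19 genes of translation factors and other TOP mRNAs, which include Fau, 0 passed the test between tissues in either direction, against 7.28% and 6.99% of all genes (limma; 1 in each direction at an unadjusted p below 0.05, against 14.4% and 11.9%). Of the 19 genes, 12 (63.2%) fell and 0 rose by RNA fragmentation, against 25.3% and 19.1% of all genes (0 higher by RNA fragmentation also at an unadjusted p below 0.05). Their median log2 fold changes were 0.33 for tissue and -1.48 for protocol, and their share of exon reads was 1.53 and 1.60 times higher in colon by cDNA and RNA fragmentation. Eef1d, a subunit of the exchange factor of elongation factor 1, had the largest fall by RNA fragmentation (log2 fold change -5.17 ± 0.60, limma adjusted p = 3.87e-08).

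The 19 ribosome biogenesis genes found had a median log2 fold change for tissue of -0.30, 7 genes above 0 and 12 below. Their share of exon reads in colon was 0.742 and 0.642 times that in small intestine by cDNA and RNA fragmentation, but 1.22 and 0.887 times without Dkc1, a setting added after the data were seen. In this list 2 genes (10.5%) fell in colon and 0 rose, against 6.99% and 7.28% of all genes (limma; 0 higher in colon also at an unadjusted p below 0.05). These were Dkc1, the pseudouridine synthase of small nucleolar ribonucleoproteins (log2 fold change -2.47 ± 0.36, limma adjusted p = 4.36e-06), and Ncl, which encodes nucleolin (-1.30 ± 0.39, limma adjusted p = 0.020). By RNA fragmentation 12 (63.2%) fell and 2 (10.5%) rose, against 25.3% and 19.1% of all genes, with a median of -1.53. The genes that rose were Ubtf, a factor of ribosomal RNA transcription (1.39 ± 0.42, limma adjusted p = 0.0074), and Bysl, which acts in maturation of the small subunit (1.04 ± 0.42, limma adjusted p = 0.043). The largest falls were those of Nop10, a partner of Dkc1 (-3.18 ± 0.44, limma adjusted p = 7.85e-07), and Wdr12, which acts in maturation of the large subunit (-3.10 ± 0.58, limma adjusted p = 6.80e-05).

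The 70 mitochondrial ribosomal protein genes had a median log2 fold change for tissue of 0.33, 0 passed the threshold (limma; 5 higher in colon and 0 in small intestine at an unadjusted p below 0.05, against 14.4% and 11.9% of all genes), and their share of exon reads was 1.47 times higher in colon by both protocols. By RNA fragmentation 52 (74.3%) fell and 0 rose, against 25.3% and 19.1% of all genes (0 higher by RNA fragmentation also at an unadjusted p below 0.05), with a median log2 fold change of -2.66, beside -2.49 for the cytosolic ribosomal protein genes. Mrpl35 (-5.09 ± 0.62, limma adjusted p = 1.09e-07) and Mrpl33 (-4.87 ± 0.52, limma adjusted p = 1.13e-08), both of the large mitochondrial subunit, had the largest falls.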

How the data were processed

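Deposited were read placements of 4 libraries, 1 per tissue and protocol: positions, strands and mismatches, with the authors' positions of exon blocks and junctions and reports with numbers of reads. All values per gene were computed here. The authors had matched 35 colors with up to 3 mismatches to RefSeq exons and junctions of mm9 and kept uniquely placed reads. From these, reads starting in an exon block, with 3 bases of tolerance, were counted per gene here. Names were taken from GENCODE M1. The genes and lists were chosen with earlier results of these data known.

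RPKM is reads per 1000 exon bases per 1000000 exon reads. Log2 ratios used RPKM + 1. Genes with at least 20 reads over the 4 libraries were tested by limma voom 3.58.1 (R 4.3.3; TMM factors computed here; protocol and tissue as terms; Benjamini-Hochberg over 14186 genes; 1 residual degree of freedom). This replaces the count test planned, which could have been run on the reads counted here but was left out, since count models were kept to counts made by the authors. P-values measure only the spread between these libraries, which may be technical. Data were simulated for the tissue comparison among 14079 genes with a dispersion of 0.05. Of 200 well-covered genes changed 4-fold, 199 were recovered, with 8 false calls. Smaller changes, such as the median log2 fold change of 0.69 over the members, were not simulated. Nor was a tissue difference that varies between protocols. Unique windows were found with bwa 0.7.19-r1273. Intervals are 95% Wilson (shares) and exact binomial (ratios), and 0 was set against 3 reads.

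Members named were the 5 with the highest and lowest mean RPKM, the 5 largest folds past the threshold, all members outside the canonical list, Rpl39, Rps29, Rplp0, Rpl13a and Rps18. Other lists were limited to 4 genes each by the same rule. Other names were chosen after their values were seen. Rpl41 was not analysed here. Some genes that the rule would name are not reported here.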

Additional observations from a re-analysis of the deposited data

Results flagged for a closer look

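The ratio of colon to small intestine pointed in opposite directions in the cDNA and the RNA fragmented libraries for 5 members whose counting intervals excluded 1 in both. It was 1.51 and 0.794 for Rps3a, 1.62 and 0.443 for Rps27a, 2.38 and 0.753 for Rpl8, 0.952 and 1.40 for Rpl7l1, and 1.24 and 0.0976 for Rpl10l, by cDNA and by RNA fragmentation. The last ratio rests on 6 small intestinal reads and 1 colonic read. With 1 library per tissue and protocol the difference between protocols was not tested. No share over all genes is given for these intervals. Without regard to intervals, 8 members were higher in colon by cDNA and in small intestine by RNA fragmentation, and 1 the other way. Of all 20179 genes, 2607 and 2185 were.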

How the results depend on the processing

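No paired analysis was possible because each tissue and protocol has 1 library and the labels tie none to a mouse, although the paper describes both tissues as from the same mice. Leaving out a library was not possible either, since 3 libraries leave no residual degree of freedom. The planned DESeq2 test was left out, since count models were kept to counts made by the authors. Settings with limma-trend, members with at least 80% unique coding windows, coding bases and Lars2 left out were chosen after the data were seen.

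Of the 152 values recomputed, 82 stayed within 1.5 times (counts) or within their error (other values), and 1 reversed. The 4 calls higher in colon became 0 by start points, median-of-ratios factors or without the filter, and 25 with library totals only. The 1 call higher in small intestine became 0 at 1 mismatch, by start points, median-of-ratios factors, library totals only, without the filter, with limma-trend and, since Rps4y2 is not canonical, among canonical members. The median of all genes for tissue moved from 0.12 to 0.38 with library totals only. The 76 calls higher by cDNA fragmentation became 13 by start points, which are limited in number. The 0 higher by RNA fragmentation became 1 with library totals only.

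Between tissues (colon to small intestine), the median log2 ratio by cDNA fragmentation reversed to -0.019 by start points, which are limited in number, and was 0.70 with TMM and 0.59 with median-of-ratios factors, and by RNA fragmentation it was 0.17, 0.56 and 0.54 in the same order. That of RNA to cDNA fragmentation was -0.36, -2.32 and -2.26 in small intestine and -0.17, -2.42 and -2.27 in colon, and -1.56 in colon at 1 mismatch. The 6 members past 3-fold in colon by RNA fragmentation became 0 by start points, 1 with either scaling and 3 without Lars2. The 0 by cDNA fragmentation became 1 at 1 mismatch, and the 0 in small intestine by RNA fragmentation became 2 with 0.1 RPKM in the divisor.

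For small intestine and colon by cDNA and then by RNA fragmentation, the shares of reads were 2.76%, 5.15%, 0.847% and 1.76% at 1 mismatch, 0.851%, 0.846%, 0.676% and 0.768% by start points, and 2.82%, 5.29%, 0.877% and 1.86% for canonical members. They were 2.89% and 5.38% by cDNA fragmentation with junctions, and 1.04% and 1.99% by RNA fragmentation without Lars2. Median RPKM was 357, 636, 88.5 and 163 at 1 mismatch, 504, 917, 155 and 262 over possible start positions, 424, 774, 130 and 225 for members with unique windows, and 490, 884, 140 and 225 over coding bases. It was 134, 135 and 114 by start points in all but the RNA fragmented small intestine library, and 413, 740 and 202 for canonical members in the same libraries. The cause of these differences was not tested.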
